A study of Mus musculus with 4 samples.

Results

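m6A-seq in mouse c-Kit+ hematopoietic cells was examined for the transcripts of 10 Polycomb genes, namely Ezh1, Ezh2, Eed, Suz12 and Jarid2 of Polycomb repressive complex 2 (PRC2) and Ring1, Rnf2, Bmi1, Cbx2 and Phc2 of Polycomb repressive complex 1 (PRC1). The genes were chosen by name, as 10 of 21938 protein-coding genes in the annotation. A peak was given to a gene when its summit, the base of highest signal, lay in an annotated exon of that gene. In this way 8 of the 15635 peaks of replicate 1 and 11 of the 14872 peaks of replicate 2 belonged to the 10 genes.

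The cells were fetal liver cells enriched with magnetic beads for the receptor Kit, from C57BL/6 mice. Per the study's methods these were Ythdf2 CTL cells, that is Ythdf2 fl/fl cells without Cre, whose floxed allele encodes a functional GFP-YTHDF2 fusion, so the only genotype measured carries the floxed allele. The series has 2 m6A immunoprecipitation (IP) samples and 2 input samples, numbered as biological replicates. RNA is fragmented, fragments carrying N6-methyladenosine are captured with an antibody, and peaks are called where captured reads exceed a local background. Embryonic age, sex and the number of fetuses pooled are not given in the sources used here. The molecule is labelled total RNA for IP samples and polyA RNA for input samples. With a single condition there are no groups to compare, and no test between conditions was made.

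m6A is written on nascent RNA by the METTL3-METTL14 methyltransferase, mostly in long exons and near stop codons, and the reader YTHDF2 directs transcripts that carry it to decay. Polycomb proteins keep genes silent by modifying histones. PRC2 methylates lysine 27 of histone H3 through its catalytic subunit EZH2 or EZH1, which is inactive without EED and SUZ12. PRC1 ubiquitinates histone H2A through RING1 or RNF2 (also called RING1B), and in its canonical form holds a CBX protein that binds the PRC2 mark, a PCGF protein such as BMI1, and a PHC protein that links complexes together. In blood formation BMI1 is required for hematopoietic stem cell self-renewal, and EZH2 for fetal liver hematopoiesis.

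The sequences under the peaks are shown first, because members differed in whether a peak summit lay near the m6A core motif GGAC. All windows are 25 nt of spliced sense-strand sequence from GENCODE M21 transcripts on GRCm38, 5′ to 3′, with the adenosine at the center and the motif in capitals. The first set is the GGAC nearest to the summit where it lay within 50 nt in at least 1 replicate (Jarid2, Cbx2, Phc2, Bmi1 and the last exon of Ring1).
Jarid2 exon 7, chr13:44902747-44902771, + strand: tctgctgaatGGACacgtgaagaag
Jarid2 exon 8, chr13:44906350-44906374, + strand: aaactgcccaGGACcggctggccaa
Cbx2 coding sequence of exon 5, chr11:119028968-119028992, + strand: gctctgactcGGACcctgactcgac
Phc2 coding sequence next to the stop codon, chr4:128751635-128751659, + strand: gcatgctcaaGGACtcctagagtct
Bmi1 coding sequence of exon 10, chr2:18684214-18684238, + strand: ccagagggatGGACtgacgaatgct
Ring1 3′ UTR, chr17:34021264-34021288, − strand: gacagcaagaGGACaaaggaggaca

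The Cbx2 site shown lay 38 nt from the summit of replicate 2, and in replicate 1 the nearest GGAC was another, 156 nt away. The shared peaks of Ring1 exon 6 and Suz12 fell outside this set. In Ring1 exon 6 the nearest GGAC lay 52 nt from the summit in both replicates. The Suz12 peak at the stop codon held a single GGAC, 234 nt upstream of the summit in replicate 1 and 216 nt upstream in replicate 2. The nearest sites of the broader DRACH consensus (A, G or T, then A or G, then AC, then A, C or T) were 4 nt downstream and 1 nt upstream of the respective summits, and are shown to set them beside the GGAC sites.
Suz12 replicate 1, chr11:80032128-80032152, + strand: aaagctttggAAACTgacggtgtct
Suz12 replicate 2, chr11:80032105-80032129, + strand: tcagtgaaacTAACTcaaaagagaa

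The last set is the GGAC nearest to the stop codon in the 3 members without any peak, shown because the motif alone did not separate members with and without peaks.
Ezh1, 8 nt before the stop codon, chr11:101192937-101192961, − strand: agagggaaacGGACgtcttctagcc
Rnf2, 85 nt past the stop codon, chr1:151471221-151471245, − strand: ttactttcatGGACagacctgggat
Ezh2, 455 nt before the stop codon, chr6:47540717-47540741, − strand: ctgaccattgGGACagtaaaaatgt

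Of the 10 members, 6 had a peak in both replicates (Suz12, Jarid2, Ring1, Bmi1, Cbx2 and Phc2), Eed had a peak in replicate 2 alone, and Ezh1, Ezh2 and Rnf2 had none. Among all protein-coding genes, expressed or not, 30.9% had a peak in both replicates (34.5% in replicate 1, 33.5% in replicate 2 and 37.1% in either). Within PRC2 2 of 5 members had a peak in both replicates, and within PRC1 4 of 5. With so few genes and a background that counts silent genes, nothing particular to either complex can be read from these counts. No member had a summit in an intron in either replicate, and counting any overlap of a peak with an exon added no member.

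**Figure D1:**
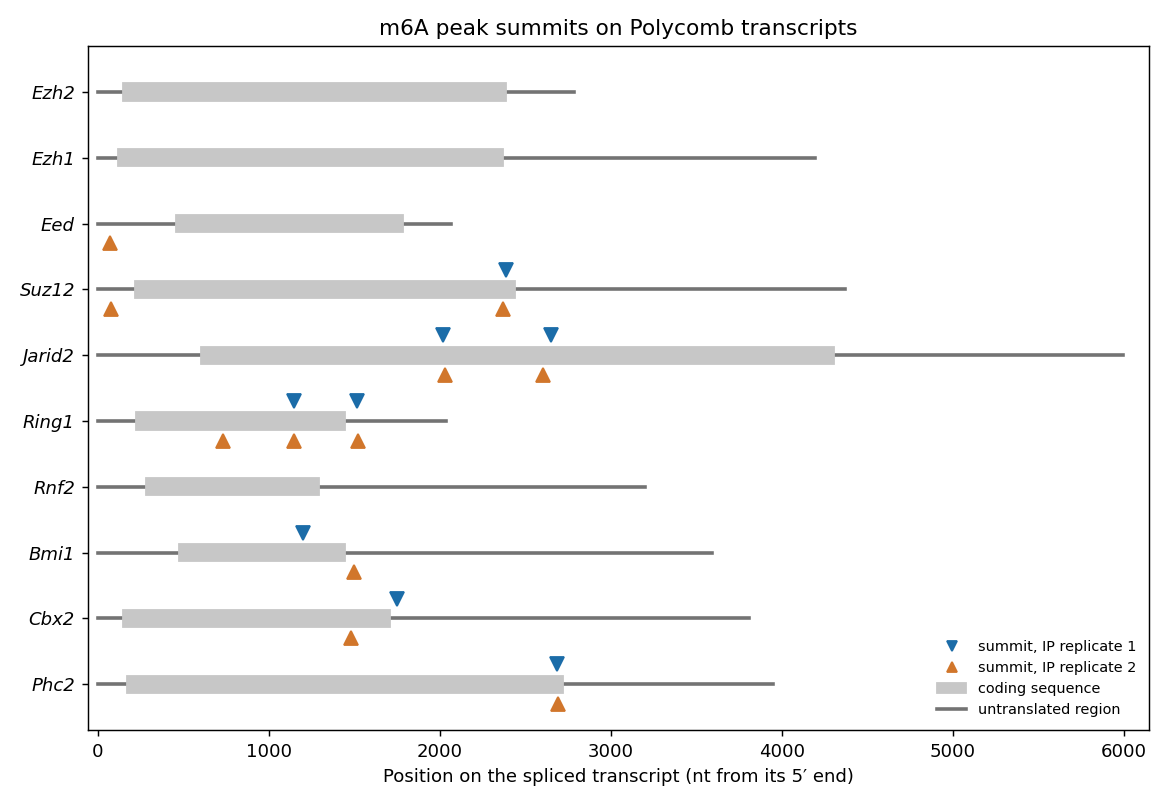
Peak summits of the 10 genes on their spliced transcripts, in nt from the 5′ end (horizontal axis), with the coding sequence as a gray bar, untranslated regions as a line, replicate 1 as triangles above and replicate 2 as triangles below. Summits of shared peaks lie within 50 bp of each other in Suz12, Jarid2, Ring1 and Phc2 and are further apart in Bmi1 and Cbx2. Eed, Suz12 exon 1 and Ring1 exon 5 have a triangle of replicate 2 alone, while Ezh2, Ezh1 and Rnf2 have no triangle.

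The catalytic subunits of PRC2 had no peak in either replicate. Ezh2 (chr6:47530139-47595030, − strand) has a transcript of 2787 nt with 11 GGAC and a 3′ UTR of 402 nt, and none of its GGAC lay within 200 nt of the stop codon. Ezh1 (chr11:101191116-101226450, − strand), its paralog, has 4193 nt with 11 GGAC as well, 2 of them within 200 nt of the stop codon, and a 3′ UTR of 1823 nt. In each of these genes 61 nt of coding sequence lay in the last exon, the least among the 10 members. The nearest peak to Ezh2, 4344 bp and 4345 bp from the gene, lay in an exon of Cul1.

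How much IP signal would have been needed there is set by the background, which is not known for a gene without a peak. Among exonic peaks over 15 to 25 control reads, the lowest fold enrichment called was 1.85 in replicate 1 and 1.86 in replicate 2, on no fewer than 30 and 33 IP reads. Over 50 to 100 control reads, 1.41-fold was still called in each replicate. Reads outside the peaks were not analysed here, so a gene without a peak can lack m6A, lack expression or lack reads.

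Suz12, which stabilizes PRC2, had a peak around its stop codon in both replicates, with the most IP reads of any member. The peak ran from 80031714 to 80032359 on chr11 (+ strand) in replicate 1 and from 80031718 to 80032342 in replicate 2, in exon 16 of 16, with summits 52 nt and 70 nt before the stop codon. Fold enrichment was 2.59 in replicate 1 and 2.72 in replicate 2, with −log10 q of 20.9 and 23.3. These values rested on 151 IP reads (95% exact Poisson interval 128 to 177) over 66 control reads and on 162 IP reads (138 to 189) over 56. The Suz12 peak stood at percentile 16.7 and 18.5 of all exonic peaks by fold enrichment, and at 93.8 and 97.6 by IP reads. Exonic peaks over 50 to 100 control reads had median fold enrichments of 2.34 and 2.07 and median IP reads of 138 and 144. The Suz12 stop codon peak lay above both medians in each replicate.

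Replicate 2 alone had another Suz12 peak, in the first exon (79993044 to 79993296). Its fold enrichment was 5.33, on 55 IP reads over 9 control reads, and its summit lay in the 5′ UTR, 135 nt before the start codon. The peak of Eed, the subunit that reads methylated H3, was of the same kind. It was found in replicate 2 alone (chr7, 89980800 to 89981076), in exon 1 of 12, with 6.29-fold enrichment on 65 IP reads (50.2 to 82.8) over 9 control reads. Its summit lay in the 5′ UTR, 389 nt before the start codon. Both peaks reached past the annotated 5′ end of their gene, by 62 bp in Suz12 and 93 bp in Eed. The Eed summit also lay in an exon of E230029C05Rik, and since the lists carry no strand the peak cannot be given to either gene with certainty. By the summit rule the Eed peak stays in the counts of member peaks, and it is left out of those of positions and motifs. In replicate 1, exonic peaks over 5 to 15 control reads were called from as few as 13 IP reads, the lowest of that whole range. The background of replicate 1 at the Suz12 exon 1 and Eed sites is not known.

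Jarid2, the PRC2 accessory subunit that helps recruit the complex to chromatin, had 2 peaks per replicate, both inside the coding sequence and far from the stop codon. They lay in exons 7 and 8 of 18, which with 1033 and 503 nt are the only internal exons of at least 400 nt in any member. The exon 7 peak (chr13, + strand, 44902190 to 44902824 and 44902163 to 44902835) was enriched 2.99-fold and 3.50-fold, from 96 and 102 IP reads. The exon 8 peak (44906118 to 44906451 and 44906131 to 44906464) was enriched 4.07-fold and 4.26-fold, from 92 and 84 IP reads. The GGAC of exon 7 shown above lay 24 nt and 11 nt downstream of the summits, and that of exon 8 lay 21 nt and 67 nt downstream. Jarid2 has no GGAC within 200 nt of its stop codon and had no summit there. Suz12 has none in that window either, yet had a summit there in both replicates. A further peak 638 bp and 640 bp past its 3′ end lay in an exon of Dtnbp1 and was not counted.

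Of the paralogous catalytic subunits of PRC1, Ring1 had peaks and Rnf2 had none. Ring1 (chr17, − strand) is the shortest member transcript with 2034 nt, and has the highest density of the motif with 8.85 GGAC per kb. A peak in exon 6 of 7 (34021811 to 34022022 and 34021772 to 34022029) had its summit on the same base in both replicates, where 84 and 93 IP reads gave a fold enrichment of 2.55 and 2.98. A peak in the last exon (34021247 to 34021561 and 34021246 to 34021571) had its summits 73 nt and 79 nt past the stop codon. Its fold enrichment of 2.19 and 1.97 was among the weakest of all exonic peaks, at percentile 8.70 and 4.99. Replicate 2 had a further peak in exon 5 (34022460 to 34022711), with 2.86-fold enrichment on 53 IP reads over 17 control reads. In replicate 1 exonic peaks over 15 to 25 control reads were called from as few as 30 IP reads, but its background at the exon 5 site is not known.

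Rnf2 (chr1:151469405-151500811, − strand) has a longer transcript of 3201 nt with 6 GGAC, or 1.87 per kb. It has 2 GGAC within 200 nt of its stop codon and a last exon of 2013 nt, and had no peak in either replicate. The coding part of the last exon is 102 nt in both Ring1 and Rnf2.

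Bmi1 had 1 wide peak per replicate in its last exon (chr2, + strand, 18684090 to 18684771 and 18683986 to 18684790); the fold enrichment was 4.01 and 3.27. The summits held 97 and 102 IP reads against a background of 26.8 and 29 control reads. The peaks overlapped, whereas their summits lay 296 bp apart, 241 nt before the stop codon in replicate 1 and 55 nt past it in replicate 2. A GGAC followed by T lay 12 nt upstream of the first summit, and another lay 51 nt upstream of the second. The peak held 3 and 4 GGAC, 3 of them followed by T in each replicate.

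Cbx2, which binds the mark made by PRC2, had the highest fold enrichment of the members. Its peak covered 1619 bp in replicate 1 (chr11, + strand, 119027851 to 119029469) and 1279 bp in replicate 2 (119028190 to 119029468), against medians of 397 bp and 413.5 bp for exonic peaks. Fold enrichment was 8.63 and 8.84, at percentile 92.2 and 89.8 of exonic peaks, with −log10 q of 46.6 and 41.9. The IP reads behind it were 83 (66.1 to 103) and 77 (60.8 to 96.2), at percentile 60.6 and 58.3, over 10 and 7.4 control reads. The peak held 8 GGAC in replicate 1 and 6 in replicate 2, more than any other member peak. The summits lay 47 nt past the stop codon and 226 nt before it, in an exon of 3372 nt that holds 1272 nt of coding sequence.

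Phc2, the polyhomeotic subunit, had the weakest peak in replicate 1. It lay over the stop codon in exon 15 of 15 (chr4, + strand, 128751406 to 128751891 and 128751408 to 128751875), with summits 33 nt and 30 nt before the stop codon. Fold enrichment was 1.83 and 2.36, at percentile 3.38 and 11.4, with −log10 q of 6.41 and 13.2. The summits held 116 and 123 IP reads against a background of 72 and 49 control reads. The adenosine of the GGAC shown above is 5 nt before the stop codon and lay 28 nt and 25 nt downstream of the summits.

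**Figure D2:**
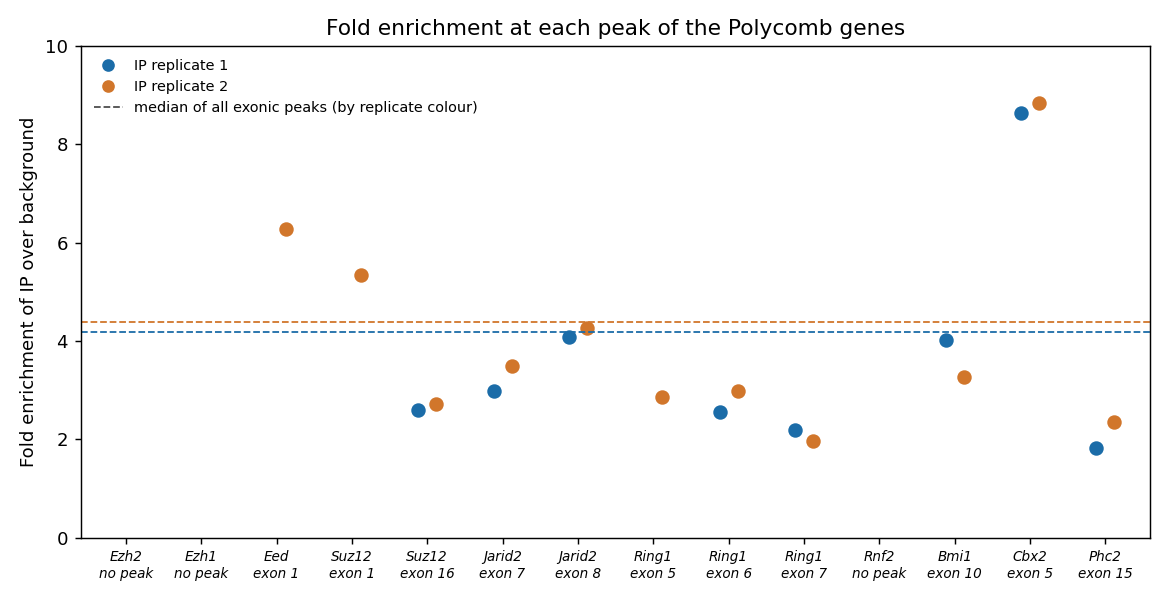
Fold enrichment (vertical axis, IP over background at the summit) of every peak, by gene and exon, with replicate 1 in blue, replicate 2 in orange and the medians of all exonic peaks, 4.18 and 4.39, as dashed lines. Cbx2 lies far above the medians in both replicates, whereas Eed and Suz12 exon 1 lie above the median with replicate 2 alone.

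The replicates gave close values at each shared peak. The 8 shared peaks differed by at most 0.37 in log2 fold enrichment (Phc2), all within the SD of 0.47 found over 11524 one-to-one pairs of overlapping peaks. Fold enrichment was higher in replicate 2 for 6 of the 8. Summits lay within 50 bp of each other for 6 peaks and over 250 bp apart for Bmi1 and Cbx2. In all, 8 of 8 member peaks of replicate 1 and 8 of 11 of replicate 2 shared at least 1 bp with a peak from the other list, against 84.2% and 86.8% of exonic peaks.

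The order of the shared peaks by the geometric mean of fold enrichment was Cbx2 (8.73), Jarid2 exon 8 (4.16), Bmi1 (3.62), Jarid2 exon 7 (3.24), Ring1 exon 6 (2.76), Suz12 (2.66), Phc2 (2.08) and Ring1 exon 7 (2.08). The gap between Cbx2 and Jarid2 exon 8 was 1.07 on the log2 scale, larger than the SD between replicates. The other 6 gaps between neighbors were at most 0.35, under that SD. It is the SD of a difference between 2 single values, whereas each gap is between means of 2 replicates, so it is a rough measure only. The ranges of the 2 replicates overlapped for 3 of the 7 pairs of neighbors. Whether neighbors below Cbx2 differ was not tested.

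Fold enrichment and IP reads ranked the members differently. In replicate 1 7 of 8 member peaks and in replicate 2 8 of 11 had a fold enrichment below the median of exonic peaks, while 8 of 8 and 8 of 11 had more IP reads than the median of 68 and 66. The median background at member summits was 36.5 control reads in replicate 1 and 27 in replicate 2, against 17 and 13 for exonic peaks. Across exonic peaks, fold enrichment fell and IP reads rose with background. Median fold enrichment was 5.29 and 5.25, by replicate, over 5 to 15 control reads, and 2.34 and 2.07 over 50 to 100. Median IP reads were 45 and 52 in the lower range, and 138 and 144 in the higher. The counts of member peaks below and above the medians were not matched for background. The stop codon peak of Suz12, the Phc2 peak and the last exon of Ring1 had 41 to 72 control reads at the summit, and Cbx2 10 and 7.4. Of all exonic summits, 99% held at most 181 and 176 IP reads, by replicate. In MACS2 this background is the highest of several local averages of the control library and is no measure of expression.

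**Figure D3:**
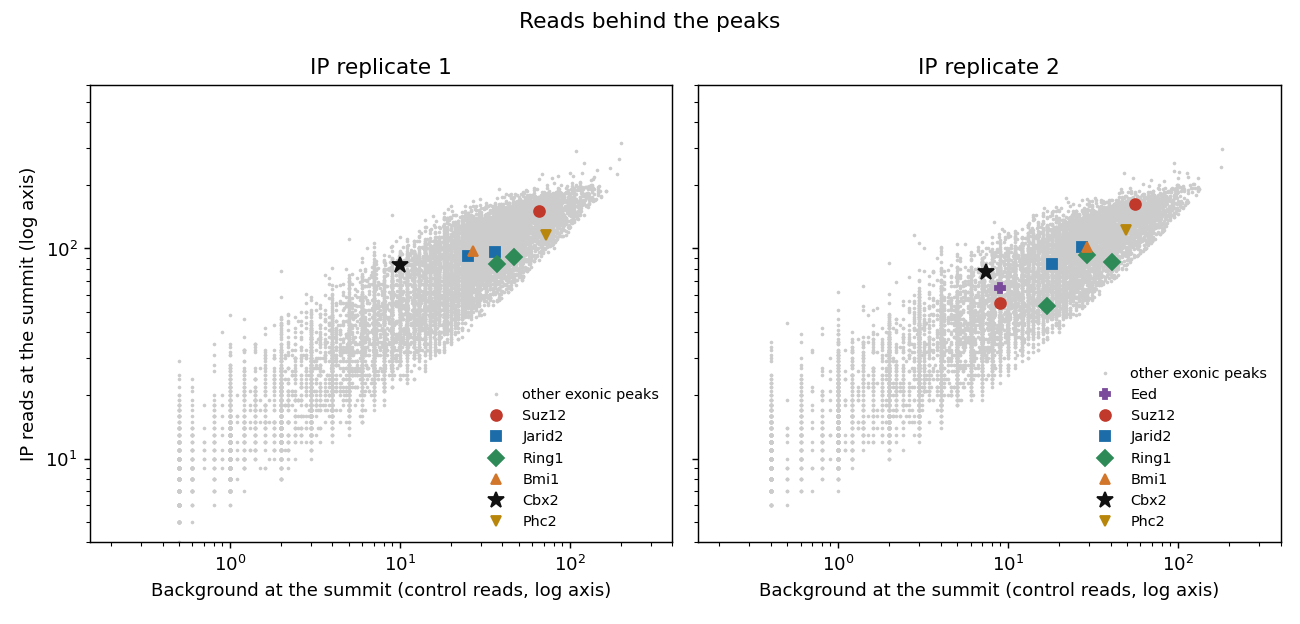
IP reads (vertical axis, log scale) against background in control reads (horizontal axis, log scale) at the summit, for member peaks by gene and all other exonic peaks in gray, 1 panel per replicate. The Suz12 stop codon peak and the Phc2 peak lie furthest to the upper right among the members. Cbx2 lies at the left of the members with 10 and 7.4 control reads. The Suz12 exon 1 peak and the Eed peak of replicate 2, each over 9 control reads, lie near it.

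Positions and motifs were then counted over the summits that lay in exons of the member alone, which leaves out Eed. Within 200 nt of the stop codon were 4 of 8 summits in replicate 1 and 4 of 10 in replicate 2, against 30.7% and 29.8% of all placed summits. In the coding sequence away from both codons were 4 and 5, against 34.0% and 33.8%, and 1 was at the start codon in replicate 2, where 15.4% of all placed summits lay. None was in the 3′ UTR beyond the stop codon window, which held 17.2% and 17.5% of all placed summits. The last exon held 5 member summits in each replicate, against 61.6% and 61.1%. Exons of at least 400 nt held 7 of 8 and 8 of 10, against 86.7% and 86.8% of all placed summits. The 3 others were those of Ring1 exons 5 and 6.

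In replicate 1 a GGAC was found within 50 nt for 5 of 8 member summits, and in replicate 2 for 4 of 10; among all placed summits it was 56.95% and 56.67%. DRACH lay within the same distance of 93.9% of all placed summits in each replicate. Among the member summits counted here it did so for all but Suz12 exon 1 in replicate 2, where it lay 53 nt away. Along whole transcripts the density of GGAC was 1.14 per kb in Suz12, 1.67 in Bmi1, 2.83 in Jarid2, 4.20 in Cbx2, 6.08 in Phc2 and 8.85 in Ring1. It was 1.87 in Rnf2, 2.62 in Ezh1 and 3.95 in Ezh2, inside the range of the members with peaks, and its median over all protein-coding genes was 4.003. Last exons of the 6 members with shared peaks ran from 692 nt in Ring1 to 3372 nt in Cbx2, and those of the 3 without peaks from 463 nt in Ezh2 to 2013 nt in Rnf2.

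The wider Polycomb system was described with 40 further genes. Of these, 30 (75%) had a peak in both replicates, Auts2 had a peak in replicate 1 alone, and 9 had none, against 30.9% with a peak in both replicates among all protein-coding genes, silent ones included. As for the 10 genes above, nothing particular to these lists can be read from that. Among the other PRC2 genes, core and accessory, 5 of 8 had a peak in both replicates, without Rbbp4, Phf1 and Phf19. Among the other canonical PRC1 genes it was 5 of 8, namely Cbx6, Cbx7, Cbx8 and both other polyhomeotic genes, Phc1 and Phc3, but not Pcgf2, Scmh1 or Scml2. Among variant PRC1 genes it was 13 of 16, without Pcgf1, Yaf2 and Auts2. Among the opposing enzymes, which remove the marks, and their partners it was 7 of 8, without Asxl3.

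The gene-level value used here is the lower fold enrichment of both replicates, each at the strongest peak by q, which need not be the same peak in both. Its median was 2.93 over the 6 members, 3.71 over the 30 other genes and 4.06 over all 6780 protein-coding genes with a peak in both replicates. These medians were not matched for background. The highest of the 30 were in Mtf2, Kdm6b and Epop. Mtf2, which brings PRC2 to unmethylated CpG islands, was enriched 14.2-fold and 12.1-fold near the start codon, from 75 IP reads in each replicate. Kdm6b, a demethylase of the PRC2 mark, was enriched 11.9-fold and 15.2-fold in its coding sequence, from 102 and 105 IP reads. Epop, a PRC2 accessory subunit, was enriched 7.23-fold and 11.6-fold in its 3′ UTR, from 82 and 94 IP reads. The strongest of the 2 Auts2 peaks, 6.48-fold, rested on 10 IP reads.

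**Figure D4:**
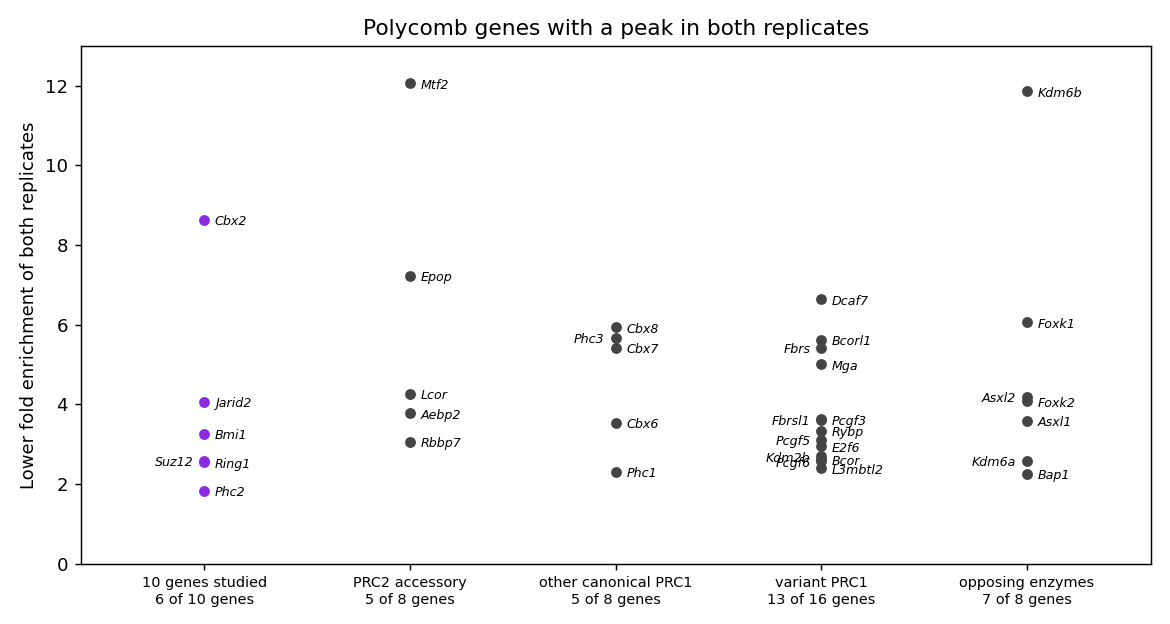
Lower fold enrichment of both replicates (vertical axis, strongest peak by q) for each gene with a peak in both replicates, by list, with the count of such genes under each list. Cbx2 at 8.63 stands highest of the 10 genes, below Mtf2 and Kdm6b. The list marked PRC2 accessory holds core and accessory genes.

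The label of the cells was compared with marker genes, although a peak needs both expression and methylation. Of 7 progenitor markers 5 had a peak in both replicates (Gata2, Runx1, Tal1, Lmo2 and Cd34), and Kit and Myb had none. Klf1 and Epor of 4 erythroid markers had one, as did Apoa1 and Hnf4a of 5 hepatocyte, Csf1r of 4 macrophage and Kdr of 4 endothelial markers. The Csf1r summits also lay in an exon of Hmgxb3. IP reads at the summits were 112 and 112 for Csf1r, 42 and 54 for Apoa1, 24 and 22 for Hnf4a and 21 and 17 for Kdr. Tfrc had a peak in replicate 1 alone, as did Afp with 7 IP reads, and Gata1, Alb and Ttr had none. The part of other cell types in the member peaks was not tested.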

How the data were processed

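Peaks were called by the authors with MACS2 (version 2.1.1.20160309 per the labels, nomodel option) on reads aligned to GRCm38 with HISAT2, in 1 list per IP replicate. The threshold and control library are not given in the sources used here, and the highest q in the lists was 0.0493 and 0.0496. The deposited values are the fold enrichment (a ratio of IP signal over local background), −log10 of the p-value and of the q-value, a score that is 10 times the −log10 q cut to a whole number, and the offset of the summit.

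Coordinates are those of GRCm38, counted from 1. Exons came from the basic set of GENCODE M21 without the mitochondrial chromosome, and positions from the transcript with the longest coding sequence. Stop and start codon windows were 200 nt on either side, the stop codon taking precedence, and motifs were searched on the sense strand, with the A within 50 nt of the summit.

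IP reads and background were solved from fold enrichment and −log10 p under the formulas of MACS2, which matched 100% of peaks in each replicate within 0.001 in −log10 p (largest difference 0.000342 and 0.00034). The factor that scaled control reads, divided by the factor that scaled IP reads, came to 0.874 and 1.05. The step was tested on simulated data. Library totals are unknown from the lists. Intervals on IP reads are 95% exact Poisson intervals and cover counting error only, since PCR copies are not independent molecules. Whether duplicates were removed is not given in the sources used here.

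All 10 members are named with every peak. The other Polycomb genes are given by counts, with those lacking a peak in both replicates named, and values are given for the 3 with the highest lower fold enrichment and for any with a peak in 1 replicate alone; 2 listed genes are not reported here. The members and lists were chosen with earlier results of these data known. No test between conditions was possible with 1 group. Python 3.11.15, numpy 2.4.6 and scipy 1.17.1 were used.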

Additional observations from a re-analysis of the deposited data

How the results depend on the processing

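The 6 members with a peak in both replicates were the same genes under any overlap with an exon, the comprehensive annotation, without summits in exons of several genes, and with a minimum −log10 q of 3 or 5. A minimum fold enrichment of 4 left 2 members, Cbx2 and Jarid2, and 16 of the other Polycomb genes instead of 30. Replicate 2 alone gave 7 members and replicate 1 alone 6, and 30 and 31 of the other genes. The share of member peaks found in the other replicate, 84.2% over both lists, was 63.2% for summits within 100 bp and 57.1% with a minimum fold enrichment of 4. The share of summits at the stop codon, 44.4%, was 66.7% within 400 nt, and ranged from 40% to 50% without either replicate. The share with GGAC, 50%, was 72.2% within 100 nt and 27.8% within 25 nt, and 40% to 62.5% without either replicate. The median fold enrichment of 2.99 was 2.79 to 3.27 without either replicate. No paired analysis was possible because peak lists were used for the IP samples alone, with no group to pair them with.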
